A study of Caenorhabditis elegans with 4 samples.

Results

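The yolk proteins (vitellogenins) of the nematode Caenorhabditis elegans and their receptor were followed in wild-type adults on 4 two-colour microarrays. The members are vit-2, vit-5, vit-6 and rme-2, taken by their names from the probes that the platform annotation assigns to a single gene. Each has 1 such probe, so 4 of 14943 named genes and 4 of 21632 probes are described. RNA of wild-type (wt) adult preparations (preps) 1 to 4 was in channel 2, each with 1 array, and a wt mixed reference RNA was in channel 1 of every array. The labels give no sex, age, culture condition or strain name, and the makeup of the reference is not stated. There is 1 group, with the adult RNA always in the same channel. An effect of the channel on a gene and a true difference of the adults from the reference therefore cannot be told apart.

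Vitellogenins are large lipid-binding proteins that carry fat and cholesterol. The intestine of the adult hermaphrodite makes them and secretes them into the body cavity, from which growing oocytes take them up by endocytosis. RME-2, a receptor of the low-density lipoprotein (LDL) receptor family on the oocyte surface, binds the yolk. vit-2 and vit-5 belong to the gene family of the largest yolk polypeptides, and vit-6 encodes a precursor that is cleaved into a pair of smaller ones. The yolk genes and rme-2 thus belong to different tissues, the intestine and the germline.

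The values are log2 ratios as deposited, where 1 unit is a doubling. The ratio is read as adult over reference, which is likely because the adult RNA is in channel 2, but the numerator is not stated. Were the ratio turned, every sign, rank and highest array given here would turn with it. Array medians of all probes lay between -0.0043 and 0.0496, and the arrays correlated over the probes with Pearson's r from 0.659 to 0.755. A gene was called where limma, fitted to 14935 genes, gave a Benjamini-Hochberg adjusted p under 0.05, two-sided against a ratio of 0. At that threshold 44.5% of all genes were called, 23.2% with positive and 21.2% with negative ratios. The 95% intervals are also those of limma, which draws the variance of each gene toward that of all genes. For genes with a large SD, such as vit-2 and vit-6, they are narrower than the SD of the gene alone would give. In such bulk RNA, more cells of a type and more RNA per cell cannot be told apart.

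The receptor gene rme-2 (gene ID 177329, chromosome IV) had positive ratios on every array. On preps 1 to 4 its log2 ratios were 0.72, 1.51, 1.23 and 1.94. Prep 4 was the highest and prep 1 the lowest, and no prep reached down to 0. The mean was 1.35 ± 0.51 (SD, n = 4), a ratio of 2.55, with a 95% interval from 0.89 to 1.82 (limma adjusted p = 0.0013). Among the 14639 genes measured on all arrays, this mean lay at the 97.1th percentile (the 2.8th with the ratio turned). On single arrays rme-2 stood between the 83.0th percentile, on prep 1, and the 99.1th, on prep 4.

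The yolk gene vit-2 (gene ID 180781, chromosome X) was below the reference on preps 1 to 3 and above it on prep 4. Its log2 ratios were -0.61, -0.75, -1.19 and 1.49 on preps 1 to 4. Prep 4 thus had 2.81 times the reference level, while prep 3 was 2.29-fold below it. The mean of -0.27 ± 1.20 (SD, n = 4) had a 95% interval from -1.15 to 0.62 and was not called (limma adjusted p = 0.60). Without prep 4 the mean was -0.85 and was called (adjusted p = 0.012), and the SD was 0.30, so 1 array sets both the call and the spread. Without prep 3 the mean was 0.04.

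The gene vit-6 (gene ID 177619, chromosome IV) was also far higher on prep 4 than on the other arrays. It had log2 ratios of 0.15, 0.86, -0.03 and 2.53 on preps 1 to 4. Prep 4 was at 5.76 times the reference, prep 2 at 1.82 times, and preps 1 and 3 lay close to it. The mean of 0.88 ± 1.16 (SD, n = 4), with a 95% interval from 0.02 to 1.74 before adjustment, was not called (limma adjusted p = 0.089). Without prep 1 the mean was 1.12 and was called (adjusted p = 0.043). Without prep 4 the mean was 0.33 (adjusted p = 0.26) with an SD of 0.47.

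The gene vit-5 (gene ID 180630, chromosome X) had the mean nearest to the reference among the members, though not the nearest value on every array. Its log2 ratios were -0.21, -0.56, 0.30 and 0.58 on preps 1 to 4. Preps 1 and 2 were below the reference and preps 3 and 4 above it. The mean was 0.03 ± 0.51 (SD, n = 4) with a 95% interval from -0.44 to 0.49 (limma adjusted p = 0.93), which leaves room for a modest difference either way. The sign of this mean was negative without prep 3 (-0.07) or prep 4 (-0.16), and positive without either of the others.

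**Figure D1:**
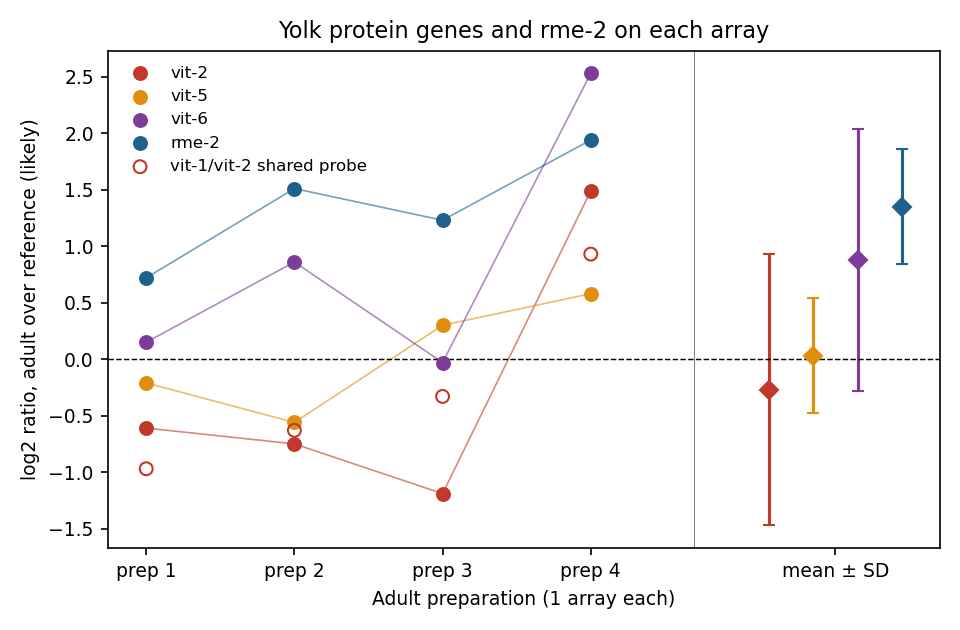
Log2 ratio of adult over reference RNA (likely direction, y axis) for vit-2, vit-5, vit-6, rme-2 and a probe shared by vit-1 and vit-2 on the array of each adult preparation (x axis). Lines join the values of a gene and imply no order of the preps, and diamonds with bars give the mean ± SD over 4 arrays. All 4 genes had their highest value on prep 4, and only rme-2 of the 4 lay above 0 on every array.

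Another probe is annotated to both vit-1 and vit-2, close relatives within the family, and lies outside the single-gene rule. Its log2 ratios were -0.97, -0.63, -0.33 and 0.93 on preps 1 to 4, again below the reference on preps 1 to 3 and above it on prep 4. The mean was -0.25 ± 0.83 (SD, n = 4; limma over 21497 probes, adjusted p = 0.52). The single-gene vit-2 probe differed from it by between -0.86, on prep 3, and 0.56, on prep 4. The genes vit-1, vit-3 and vit-4 have no probe of their own here and were not analysed. Members of this family are near-identical in places, so the values of vit-2 and vit-5 may include signal of others. No shared probe is annotated to vit-5 or to vit-6, which was set apart from this family above. Shared signal was not tested.

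The arrays were next compared for each gene by itself, since the preps differed. All 4 members were highest on prep 4, as were 29.9% of all genes measured on every array (with the ratio turned, the same genes would be lowest there). The excess of prep 4 over the mean of preps 1 to 3 was 2.34 for vit-2 and 2.20 for vit-6 on the log2 scale, or 5.08-fold and 4.59-fold. These ranked 10th and 12th of 14639 genes, from the other end if the ratio is turned. The excess was 0.79 for rme-2, exceeded by 654 genes, and 0.74 for vit-5, exceeded by 806 genes. An excess of at least 1 was found for 1.82% of all genes, and the median over genes was 0.011.

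The SD between preps divided the genes in the same way, but it comes from the same 4 values and is no separate evidence. It was 1.20 for vit-2 and 1.16 for vit-6, at the 99.1th and 99.0th percentiles of all genes, against a median of 0.31. For vit-5 and rme-2 it was 0.51, at the 83.7th and 83.8th percentiles. Preps 3 and 4 share a date in their array titles, and vit-2 and vit-6 differed between these arrays by 2.69 and 2.55 on the log2 scale. The corresponding difference was 0.27 for vit-5 and 0.72 for rme-2. These ranks describe the 4 arrays and carry no test.

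**Figure D2:**
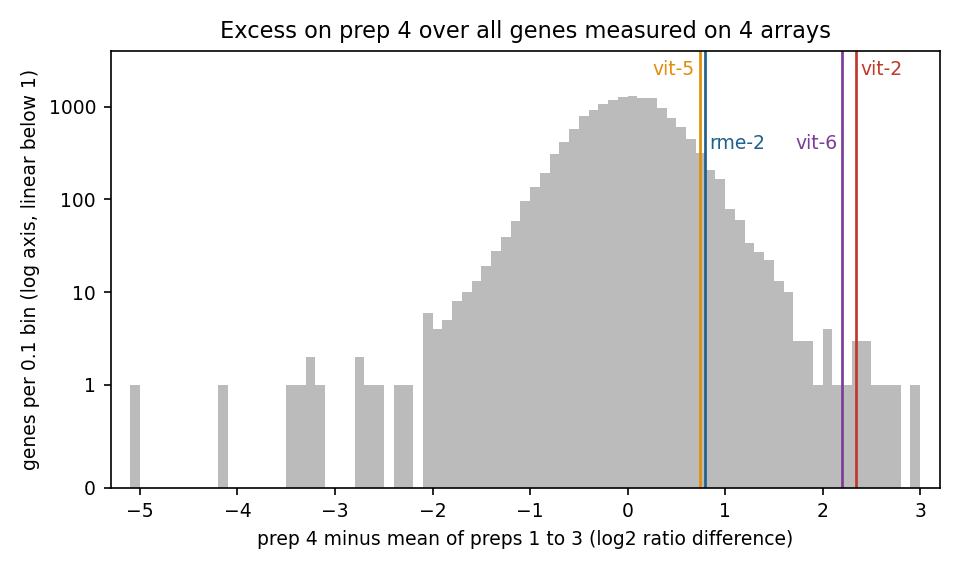
Distribution over 14639 genes of the log2 ratio on prep 4 minus the mean of preps 1 to 3 (x axis, log2 units), as the number of genes per bin of 0.1 (y axis, log scale above 1). Vertical lines mark vit-5 at 0.74, rme-2 at 0.79, vit-6 at 2.20 and vit-2 at 2.34, the latter pair in the sparse upper tail.

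Among the yolk genes, vit-6 and vit-2 kept their order on every array. The log2 ratio of vit-6 exceeded that of vit-2 by 0.77, 1.61, 1.17 and 1.04 on preps 1 to 4. The difference between vit-5 and vit-2 changed sign, from 1.5 on prep 3 to -0.91 on prep 4. The difference between vit-6 and vit-5 ran from -0.33 on prep 3 to 1.95 on prep 4. These are differences of ratios to the reference and do not compare transcript levels between genes.

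The receptor was then set against each yolk gene within each array. The log2 ratio of rme-2 exceeded that of vit-2 by 1.34, 2.26, 2.42 and 0.45 on preps 1 to 4, with a mean difference of 1.62 ± 0.91 (SD). It exceeded that of vit-5 by 0.94, 2.07, 0.93 and 1.37, with a mean difference of 1.32 ± 0.54. Both were positive on 4 of 4 arrays, and the exact sign-flip permutation test, two-sided, gave p = 0.13 for each, the smallest that 4 arrays allow (adjusted over the 3 pairs, 0.19). Against vit-6 the difference was 0.57, 0.65, 1.26 and -0.58, so prep 4 went the other way, and the mean was 0.47 ± 0.77 (exact p = 0.375, adjusted p = 0.375). This exact test cannot reach a p under 0.05 with 4 arrays.

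Genes of yolk uptake and endocytosis had mixed ratios. Of 21 genes tested, rme-2 included, 6 were called positive, 4 negative and 11 were not called, against 23.2% and 21.2% of all genes. Their median was 0.04, and that of all genes was 0.064. Without prep 4 the positive calls were 3, and without prep 2 the negative calls were 1. Over all genes 6639 were called with 4 arrays, and between 4982 and 5796 when 1 prep was left out. A call lost in this way can thus come from the smaller number of arrays. The receptor gene rme-2 had the highest mean of the list.

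The next were snx-3, a sorting nexin of endosomes, at 1.02 ± 0.52 (SD, n = 4), itsn-1, the scaffold protein intersectin, at 0.73 ± 0.42, and vps-35, a retromer subunit, at 0.72 ± 0.44 (limma adjusted p from 0.0048 to 0.014). The call of vps-35 was lost without prep 4 (adjusted p = 0.056). The caveolin gene cav-1 had -2.26, -1.81, -2.87 and -1.94 on preps 1 to 4 and a mean of -2.22 ± 0.47 (adjusted p = 9.7e-05). It was the lowest value of the list and was negative on every array. rme-4, which like rme-2 is named for defective receptor-mediated endocytosis and encodes a regulator of a Rab GTPase, had -0.65 ± 0.29 (adjusted p = 0.011), a call lost without prep 2 (adjusted p = 0.051).

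The remaining positive calls were cup-5, a lysosomal channel gene, at 0.59 ± 0.50, and ehs-1, an endocytic adaptor gene, at 0.53 ± 0.42. Both lost the call without prep 4 (limma adjusted p = 0.16 each) or without prep 2 (0.14 and 0.11), and ehs-1 also without prep 3 (0.10). The remaining negative calls were rab-5, a GTPase of early endosomes, at -0.56 ± 0.22, and apa-2, a subunit of the clathrin adaptor AP2, at -0.40 ± 0.10. The call of rab-5 was lost when prep 1 or prep 2 was left out (adjusted p = 0.055 and 0.054). That of apa-2 was lost when any prep was left out (adjusted p from 0.058 to 0.12), though its mean stayed between -0.45 and -0.38. The clathrin heavy chain gene chc-1, at 0.42 ± 0.47, was not called (adjusted p = 0.11). The endosomal chaperone gene rme-8 ran from -1.53 on prep 1 to 0.78 on prep 4, with a mean of -0.28 ± 0.95 (adjusted p = 0.50). Of the 21 genes of the list, 16 had their highest ratio on prep 4, or 76.2%, against 29.9% of all genes. Their median excess on prep 4 was 0.40, and the largest, that of rme-8, was 1.41.

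The lipoprotein assembly gene dsc-4 and 2 LDL receptor relatives of rme-2, lrp-1 and lrp-2, had means of opposite sign. dsc-4, which encodes the large subunit of the microsomal triglyceride transfer protein and is related to vitellogenins, had 0.81, 1.05, 1.05 and 1.25 on preps 1 to 4. Its mean was 1.04 ± 0.18 (SD, n = 4; limma adjusted p = 8.0e-04), positive on all arrays. The megalin homologue lrp-1, which acts in the epidermis and in moulting, had -1.61 ± 0.56 (adjusted p = 7.2e-04), negative on all arrays. Its relative lrp-2 had -0.78 ± 0.56 (adjusted p = 0.018), a call lost when prep 1 or prep 2 was left out (adjusted p = 0.051 and 0.062). It is also counted among the regulators.

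Of 15 known regulators of yolk genes tested, 2 were called positive, 5 negative and 8 neither, where 44.5% of all genes were called, 23.2% positive and 21.2% negative. Their median was -0.39, against 0.064 for all genes. The negative calls were 1 without prep 1 and 2 without prep 2 or prep 3, and the positive calls were 1 without prep 3 or prep 4. Calls over all genes also fell when 1 prep was left out, from 6639 to between 4982 and 5796. The positive ones were zfp-2, a zinc finger gene, at 0.69 ± 0.32 (SD, n = 4; limma adjusted p = 0.0099), and rict-1, which encodes the Rictor subunit of the TORC2 kinase, at 0.66 ± 0.38 (adjusted p = 0.015). The call of rict-1 was lost when prep 3 or prep 4 was left out (adjusted p = 0.052 and 0.060).

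The negative calls included dbl-1, a TGF-beta ligand, at -0.86 ± 0.13 (adjusted p = 0.0016), and sma-3, a Smad protein of its pathway, at -0.42 ± 0.11 (adjusted p = 0.035). The call of sma-3 was lost without any one of the 4 preps (adjusted p from 0.054 to 0.11), though its mean stayed between -0.47 and -0.37. The zinc finger gene pqm-1 had -1.10, -0.19, -1.60 and -0.13 on preps 1 to 4 (mean -0.75 ± 0.72, adjusted p = 0.040), and lost its call when prep 1 or prep 3 was left out (adjusted p = 0.097 and 0.15). It was lowest on prep 3, where vit-2 and vit-6 were lowest, but so were zfp-2 and sma-3 of this list. Any link to the yolk genes was not tested. The other negative calls were lrp-2 and the AP-1 factor gene fos-1, at -0.39 ± 0.05 (adjusted p = 0.041). The call of fos-1 was lost when any prep was left out (adjusted p from 0.085 to 0.11), though its mean stayed between -0.41 and -0.37. Of the transcription factors that activate vit genes, 3 were singled out after their values were seen, and none was called: the GATA factor elt-2 had -0.38 ± 0.14 (adjusted p = 0.052), the homeobox gene unc-62 -0.40 ± 0.33 (adjusted p = 0.078) and its partner ceh-60 -0.50 ± 0.51 (adjusted p = 0.075). The ratios of these 3 genes on prep 4 differed from their other arrays by -0.10, 0.26 and 0.21. The largest excess on prep 4 in this list was 1.07, for daf-16, the FOXO factor of insulin signalling. mab-3, which represses yolk genes in males, was not analysed here.

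**Figure D3:**
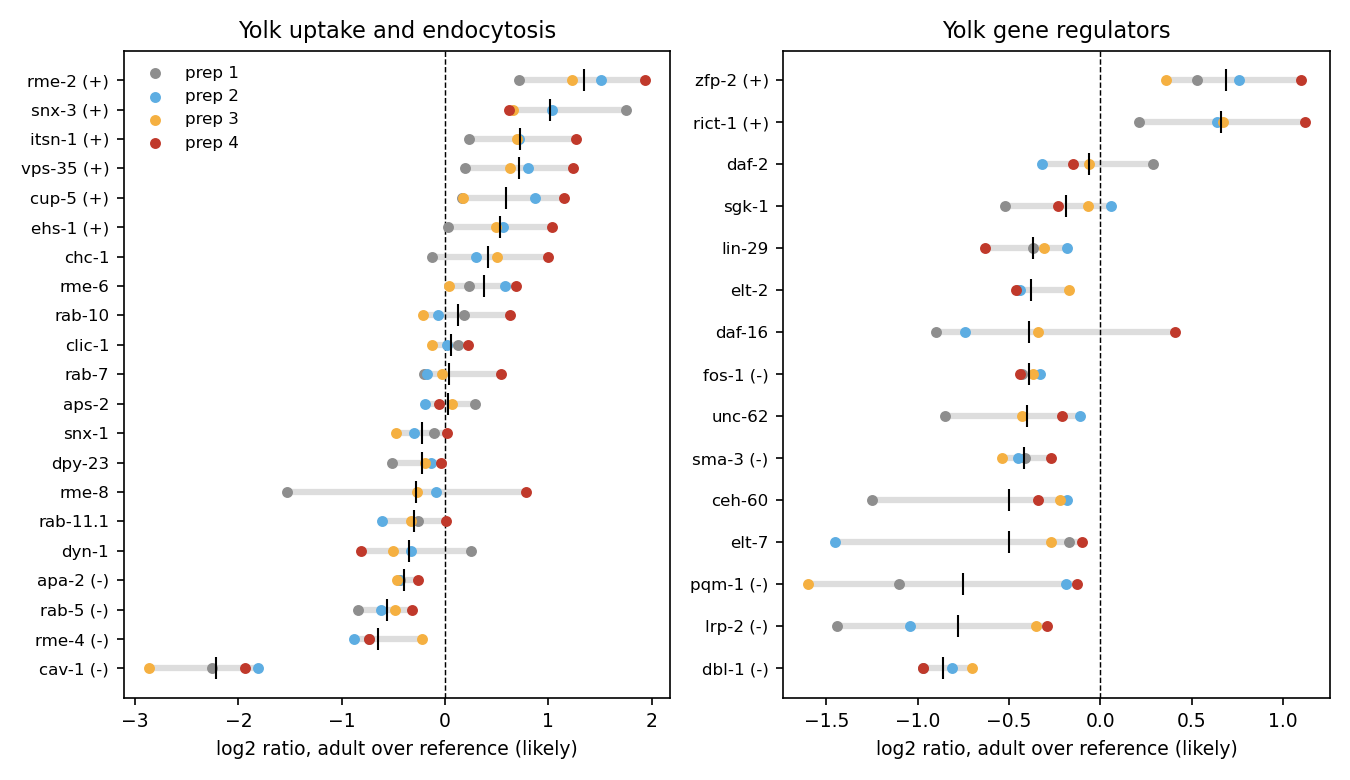
Log2 ratio of adult over reference RNA (likely direction, x axis) on each of 4 arrays for 21 genes of yolk uptake and endocytosis (left) and 15 regulators of yolk genes (right). Points are arrays coloured by prep, black ticks are means, and plus or minus marks a gene called positive or negative by limma. rme-2 has the highest mean of the left panel, and 16 of its 21 genes are highest on prep 4.

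Markers of the tissues that make and take up yolk were read on the same arrays, together with markers of other cells and stages. Of 19 oocyte genes, 15 were called positive and none negative, against 23.2% and 21.2% of all genes. Their array medians were 0.48, 0.96, 0.38 and 1.32 on preps 1 to 4. Of the 19 genes, 17 were highest on prep 4, against 29.9% of all genes. The largest excess there was the 1.67 of lin-41, a regulator of oocyte growth. The katanin subunit gene mei-1 had a mean of 1.33 ± 0.48 (SD, n = 4) and puf-7, an RNA-binding protein gene, 1.28 ± 0.57, close to rme-2. Like rme-2, the list was highest on prep 4, and its part in the rme-2 result was not tested.

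Of 19 intestine genes, 8 were called positive, 3 negative and 8 neither. Of all genes, 23.2% were called positive and 21.2% negative. The array medians of the list were 0.22, 1.08, 0.10 and 0.74. The means of its genes ran from -1.02 to 2.94, so the list was mixed. The 2 largest in size were both positive, the cathepsin B gene cpr-5 at 2.94 ± 0.50 and the intestinal actin gene act-5 at 1.36 ± 0.35. The median of the list was highest on prep 2 and not on prep 4, where vit-2 and vit-6 were highest. Of its 19 genes, 8 (42.1%) were highest on prep 4, against 29.9% of all genes. Its median excess on prep 4 was 0.10, and its largest, that of the cathepsin gene cpr-4, was 1.66.

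Sperm genes ran differently from the yolk genes. Of 15, 13 were called positive and none negative, against 23.2% and 21.2% of all genes. The array medians were 2.48, 2.33, 2.56 and 1.95, so prep 4 was the lowest array. There 1 of the 15 was highest, against 29.9% of all genes. The major sperm protein genes msp-10 and msp-36 had 3.00 ± 0.72 and 2.94 ± 0.42. Of 12 zygotic embryo genes 7 were called negative and none positive, against 21.2% and 23.2% of all genes. Their array medians ran from -0.93 on prep 2 to -0.41 on prep 4. The lowest means were -1.36 ± 0.35 for hch-1 and -1.25 ± 0.32 for sdz-24.

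Of 14 moulting genes 9 were called negative and none positive, against 21.2% and 23.2% of all genes. Their array medians ran from -1.62 on prep 1 to -0.91 on prep 3. noah-2 and noah-1, genes of the larval apical matrix, had -2.83 ± 0.38 and -2.69 ± 0.24. Males make no yolk. Of 10 male sensory neuron genes 3 were called negative and none positive, where 21.2% of all genes were called negative and 23.2% positive. The array medians, over the 9 of these genes measured on all arrays, lay between -0.25 and -0.10. The lowest mean in this list was that of asic-2, an ion channel gene, at -2.0 ± 0.76, followed by cwp-4 at -0.87 ± 0.52. The parts of these cell types in the yolk gene values were not tested.

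**Figure D4:**
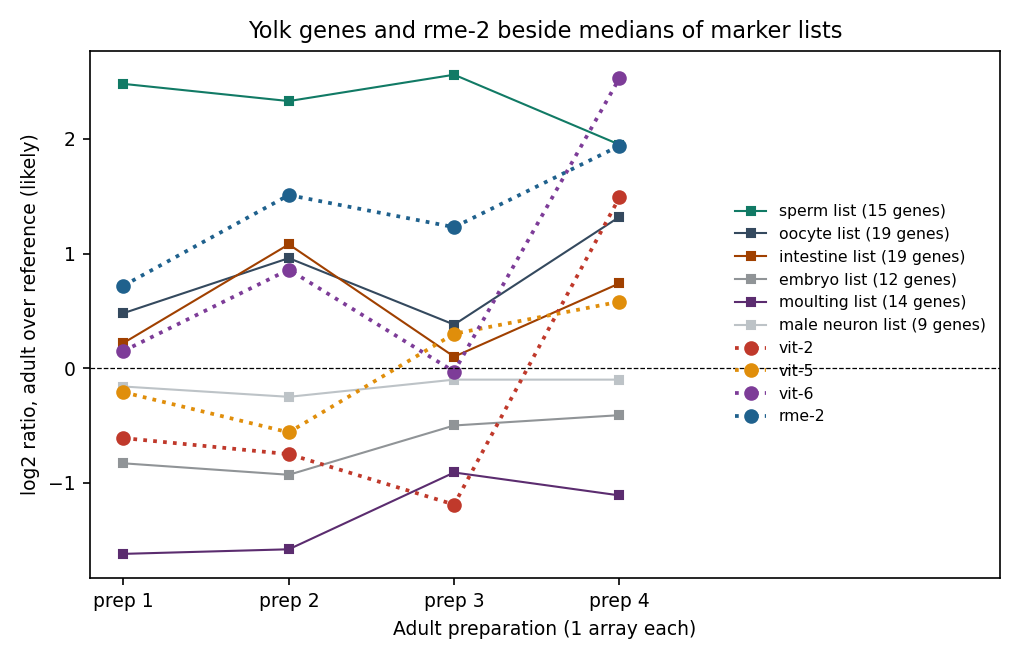
Log2 ratios of adult over reference RNA (likely direction, y axis) on the array of each prep (x axis), as medians of 6 marker lists (squares) and values of the 3 yolk genes and rme-2 (circles). Lines join the values of a list or gene and imply no order of the preps. vit-2 and vit-6 run from -1.19 and -0.03 on prep 3 to 1.49 and 2.53 on prep 4, while the sperm median is lowest on prep 4 at 1.95 and the oocyte median highest at 1.32.

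Finally, the genes with the most similar values on the 4 arrays were listed for each member, by the root mean square difference of the log2 ratios among the 14639 genes measured on all arrays. For rme-2, 397 genes lay within 0.5, and the nearest were hcp-4, a centromere protein gene (0.07), F34D10.4 (0.08), edg-1 (0.10) and T07C4.3 (0.12). For vit-5, 2425 genes lay within 0.5, and the nearest were elpc-3, an Elongator subunit gene, and unc-11, a clathrin adaptor gene (0.10 each), fbxb-41 (0.11) and the chloride channel gene clh-1 (0.12). Few genes were as near to the others. For vit-2 only 5 genes lay within 0.5, the nearest being pitr-3 (0.39), mks-6, a gene of the ciliary transition zone (0.41), ptb-1, an RNA-binding protein gene (0.42), and lido-5 (0.43).

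For vit-6 there were 9, the nearest being C17H11.2 (0.32), the lysozyme gene lys-10 (0.34), F53F4.12 (0.46) and mcm-7, a subunit of the replicative helicase (0.47). C17H11.2 had log2 ratios of -0.28, 0.43, -0.08 and 2.37 on preps 1 to 4, and lys-10 had 0.21, 0.69, 0.45 and 2.07. Both had prep 4 far above the others, which follows from their choice by likeness to vit-6. Between members the smallest difference was that of vit-6 and rme-2 (0.82) and the largest that of vit-2 and rme-2 (1.8). Likeness over 4 arrays is a description only.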

How the data were processed

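Each of 4 two-colour arrays carried RNA of 1 wild-type adult prep and the common reference. The table the authors deposited gives a log2 ratio for each probe on each array. That it is log2 was inferred: 2 raised to the value has 3 decimals (tolerance 0.00001) in 99.934% to 99.995% of spots. The sources used here do not give how the authors scanned, filtered, background-corrected and normalized the arrays. There are no intensities, so spots near background cannot be recognized, and precision is limited by the 4 arrays.

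Of 21632 probes, 16450 had a single gene symbol in the platform annotation, 247 several and 4935 none. Of the first, 16360 were matched to RefSeq genes (assembly WBcel235) by gene ID and 8 by accession, and 82 kept the annotation's symbol. Coordinates and sequences are not printed, as the arrays name no build. Probes of a gene were averaged on each array, and values were used as deposited.

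The limma fit (version 3.58.1, R 4.3.3, intercept, lmFit and eBayes) took genes with values on 3 or 4 arrays, and was tested on simulated data with known changes. Pairs were tested by exact sign-flip permutation over arrays. The common reference leaves out its own spread, and separate cultures are not stated. The p-values therefore rest only on the spread between these preps, and those of limma on that spread moderated over all genes. The members and gene lists were chosen with earlier results of these data known. Besides the members, the text names up to 6 called genes per pathway list by size of mean, 2 per marker list and the 4 genes nearest to each member. The genes cup-5, ehs-1, rab-5, apa-2, fos-1, chc-1, rme-8, elt-2, unc-62, ceh-60, daf-16, lin-41, cpr-4 and those ranked by prep 4 excess were added after their values were seen. The date block could not use duplicateCorrelation, which gives no estimate for 4 arrays in 3 dates, so the correlation (0.271) was taken from mean squared differences between arrays. Other settings were centring, scaling, other minimum numbers of arrays, array weights, a robust prior, single probes, the median and leaving out each prep.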

Additional observations from a re-analysis of the deposited data

Results flagged for a closer look

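Sets of 4 values (80 in all) were examined for an array that stands apart, and 6 stood out. In sets not picked by their values, chance gives about 1 in 20, or 4.0. Some genes here were picked after their values were seen, so that rate is only a rough guide. The male sensory neuron gene cwp-4 gave -0.09 on prep 3, with -1.17, -1.19 and -1.03 on preps 1, 2 and 4 (all on the log2 scale). The GATA factor gene elt-2 gave -0.17 on prep 3 and between -0.46 and -0.44 elsewhere. The homeobox gene ceh-60 gave -1.25 on prep 1 and between -0.34 and -0.18 elsewhere. The adaptor gene apa-2 gave -0.26 on prep 4 and between -0.46 and -0.44 elsewhere. C44B11.1 and gpa-11, which were picked for their excess on prep 4, gave 2.67 and 2.25 there, and at most 0.08 and 0.03 elsewhere. The prep 4 values of vit-2 and vit-6 did not pass the same limit, as their gap to the next array made up 0.784 and 0.651 of their ranges.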

How the results depend on the processing

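The call and the sign of rme-2 held under all settings tried, with means between 1.15 and 1.56 when 1 prep was left out. When 1 prep was left out the mean of vit-2 lay between -0.85 and 0.04, that of vit-5 between -0.16 and 0.22, and that of vit-6 between 0.33 and 1.18. With a robust prior the limma adjusted p was 0.64 for vit-2 and 0.13 for vit-6. The sign of vit-5, never called, turned with array weights (-0.03), when arrays were centred on their medians (-0.02) and with a block for the title date (-0.02). The SD of vit-2 lay between 0.30 and 1.44, and that of vit-6 between 0.47 and 1.43, when 1 prep was left out. In the same settings the uptake list had 3 to 7 positive and 1 to 3 negative calls, and the regulators had 1 to 2 positive and 1 to 4 negative calls. Over all genes these settings gave 4982 to 5796 calls. Requiring also a log2 size of 1 left 2132 of the 6639 genes called in all, by construction. Differences between rme-2 and each vit gene kept their sign in every setting run. Of 62 other named genes, 14 of the 41 called lost the call in some setting, 4 of the uncalled gained one (elt-2 with array weights, centring or scaling, chc-1 without prep 1, daf-16 and mks-6 without prep 4), and 13, all uncalled, changed sign. For these 13, leaving out 1 prep gave means from -0.43 to 0.25 for pitr-3, -0.45 to 0.35 for ptb-1, -0.45 to 0.11 for lido-5, -0.12 to 0.21 for elpc-3, -0.23 to 0.12 for unc-11, -0.18 to 0.19 for fbxb-41, -0.14 to 0.14 for clh-1, -0.63 to 0.14 for rme-8, -0.41 to 0.39 for lin-41, -0.12 to 0.86 for C44B11.1, -0.46 to 0.72 for C50F7.5, -0.24 to 0.64 for gpa-11 and -0.37 to 0.71 for let-711. For lin-41, array weights and centring gave -0.04 and the date block -0.08. Scaling gave -0.03 for ptb-1 and -0.01 for clh-1, and centring, array weights and the date block each gave -0.01 for elpc-3 and -0.03 for clh-1. The causes were not tested. No paired analysis was possible because there is 1 group, so no groups share replicate numbers, and the differences between rme-2 and the vit genes are within arrays.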

Other observations

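Genes with a prep 4 excess as large as that of vit-2 and vit-6 were looked up after these values had been seen. The 9 genes ranked above vit-2 were acs-2 (2.96 on the log2 scale), C44B11.1 (2.79), C50F7.5 (2.66), icl-1 (2.57), gpa-11 (2.49), T22F3.11 (2.47), let-711 (2.47), fmo-2 (2.36) and C17H11.2 (2.35). acs-2, an acyl-CoA synthetase gene of fatty acid oxidation, had log2 ratios of -4.08, -3.07, -3.56 and -0.61 on preps 1 to 4. icl-1, which encodes the glyoxylate cycle enzymes that let worms turn fat into sugar, had -3.28, -1.37, -2.98 and 0.03. fmo-2, a flavin monooxygenase gene, had -2.95, -2.18, -2.22 and -0.09. T22F3.11 likewise had negative ratios on preps 1 to 3, of -3.66, -3.32 and -4.13, and one of -1.23 on prep 4. C44B11.1, gpa-11, let-711, C50F7.5 and C17H11.2 had ratios between 2.10 and 2.67 on prep 4, above the reference like vit-2 at 1.49 and vit-6 at 2.53. With 1 array per prep, these differences between preps have no replicate check.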
